A study of Parhyale hawaiensis with 42 samples.

Results

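The microRNAs of *Parhyale hawaiensis* embryos at stage 14 (S14) were compared with those at stages 7 to 11 (S7–11), in 4 small RNA libraries for each time-point. All 349 mature microRNAs of the quantification were taken, from 175 precursors, and 8 of the 42 libraries of the series were used for the comparison itself. *Parhyale hawaiensis* is a marine amphipod crustacean, and both groups were pools of whole, manually staged embryos of a wild type laboratory strain. Embryos were collected from the brood pouch of females kept in artificial sea water and anaesthetised with clove oil, and no other treatment is described. S7–11 covers gastrulation and the forming germband, which is the sheet of cells that becomes the segmented body, and S14 embryos have a germband. The sample labels give the earlier group as stages 8 to 11, and the name S7–11 of the study is used. The other time-points of the series are S1–4 and S5–6 before these, and S17, S21–23 and S24–30 after them. The question was which microRNAs differ in level between these adjacent time-points.

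microRNAs are short RNAs cut from hairpin precursors, and either the 5p or the 3p arm of a hairpin can be loaded into an Argonaute protein. They pair through a short seed with messenger RNAs and lower their stability or translation. In arthropod embryos they are known for tuning patterning genes, including Hox genes, and for roles in growth, in muscle and in sense organs. In pooled whole embryos, fewer cells of a type and less RNA per cell cannot be told apart.

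Depth differed between the time-points, with 112241 to 276711 microRNA counts per S14 library (median 177641.5), against 386739 to 654912 per S7–11 library (median 493998). A single count was worth up to 2.83 normalised counts at S14 and up to 1.07 at S7–11, so low microRNAs were measured less precisely at S14. The fourth S14 replicate stood apart, with Spearman's rho of 0.816 to 0.832 with the other S14 libraries, which reached 0.907 to 0.922 among themselves. In that library 62 microRNAs expressed at some time-point had 0 counts, against 29 to 39 in the other S14 libraries and 18 to 31 in the S7–11 libraries. Reads of near-equal copies had been given to fewer loci there: a copy was at 0 in 11 of 21 groups of copies, against 0 to 5 of 21 to 25 groups in the other S14 libraries. With the copies of each group summed, rho of the fourth replicate was 0.905 to 0.922. Near-equal copies are mature microRNAs of 1 family, arm and length whose counts differ by at most 10% in many, not all, of the libraries compared. Libraries were compared where both copies were above 0 and 1 of them had at least 20 counts. Newly annotated microRNAs carry no family name, so they were joined by arm, length and counts alone. In this way 72 microRNAs fell into 27 groups. Values of a single copy are uncertain, and the sum over copies is given beside them where it matters.

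The microRNA complements of both time-points were much alike. A mean of at least 10 normalised counts was reached by 164 microRNAs at S14 and by 163 at S7–11, of which 156 were shared. Spearman's rho between the mean levels was 0.94 across the 349 microRNAs, which are not independent replicates. Over all pairs of an S14 and an S7–11 library it was 0.801 to 0.912, against 0.924 to 0.949 between S7–11 libraries and 0.816 to 0.922 between S14 libraries.

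Changes were tested in the 234 microRNAs with a mean of at least 10 normalised counts at 1 or more of the 7 time-points of the series. Of the other 115, 51 had 0 counts in all 8 libraries. A microRNA was called where the log2 fold change, S14 minus S7–11, was at least 1.5 in size and the adjusted p of edgeR's quasi-likelihood test at most 0.001. This held for 16 microRNAs (6.84% of those tested), with 6 higher at S14 (2.56%) and 10 lower (4.27%). At an adjusted p of at most 0.05 without a fold threshold, 35 were higher (15%) and 47 lower (20.1%). All S14 libraries lay above all S7–11 libraries for 52 microRNAs (22.2%) and below them for 55 (23.5%). The split by direction rests on the scaling: with total counts in place of TMM factors, 11 were called higher and 5 lower, since that scaling shifts the median log2 fold change to 0.45, against -0.06 with TMM. With the counts of near-equal copies summed, 19 of 190 were called (10%), 8 higher (4.21%) and 11 lower (5.79%). Fold changes below are relative to the TMM scaling. All 16 called microRNAs kept their direction under total counts.

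**Figure D1:**
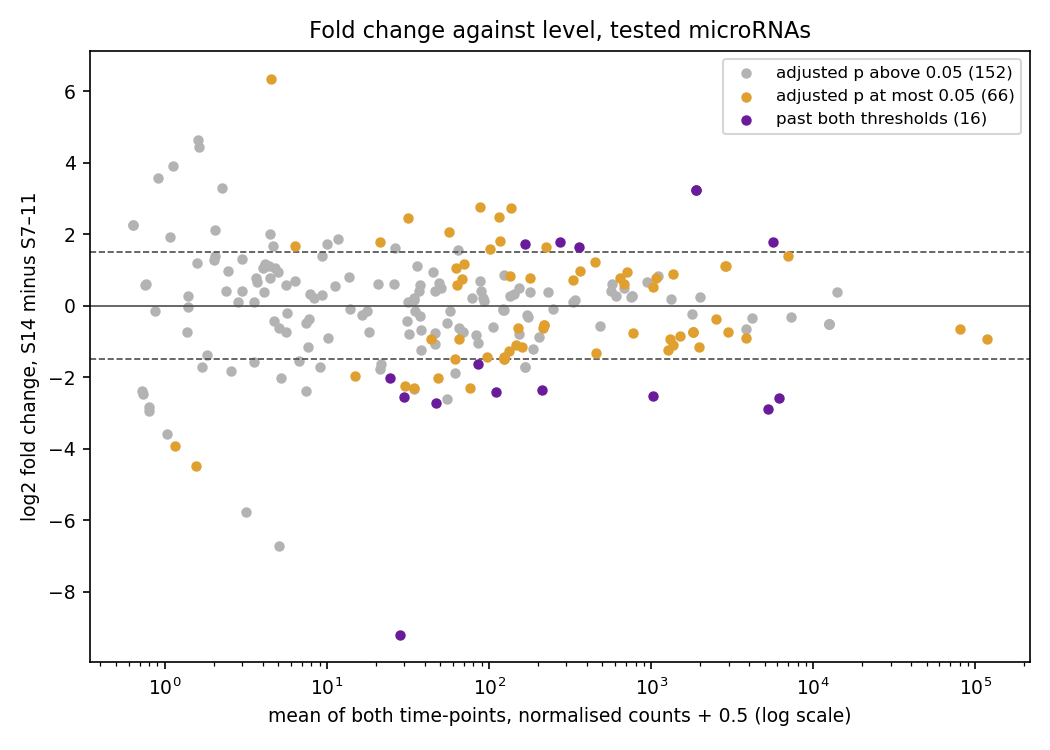
Log2 fold change (S14 minus S7–11, y axis) against the mean normalised count of both time-points plus 0.5 (x axis, log scale), for the 234 tested microRNAs. The 16 past both thresholds are purple, 66 more with an adjusted p of at most 0.05 are orange, and dashed lines mark the fold threshold of 1.5. Called microRNAs are found at low and at high levels, and the 1 near -9 had 0 counts in all S14 libraries.

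miR-10-5p was the only one of the 10 microRNAs of largest share at S14 to pass both thresholds. miR-10 lies in the Hox cluster of arthropods and targets Hox genes in *Drosophila*. Its 5p arm had 8589.8, 11696, 6537 and 9017 normalised counts in S14 libraries, against 2656, 2587, 1915 and 2125 in S7–11 libraries. Every S14 library was well above every S7–11 library. The log2 fold change was 1.77 ± 0.22 (SE), with an adjusted p of 2.0e-06 (edgeR), and its share of all microRNA counts was 2.82% ± 0.462 at S14 and 0.565% ± 0.116 at S7–11 (SD, n = 4).

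The largest rise among the calls came from a pair of copies on contig LQNS02278125.1, both newly annotated, that is, without the name of a known family. The 3p arms of loci 38476 and 38470 summed to 6902, 7008, 7228 and 6382 normalised counts in S14 libraries, against 674, 653, 761 and 555 in S7–11 libraries. The groups were about an order of magnitude apart. Summed over the copies, the log2 fold change was 3.35 ± 0.48 (adjusted p = 7.2e-06, edgeR), and 3.22 and 3.23 for the single copies.

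Both arms of a newly annotated precursor, locus 777 of contig LQNS02000138.1, were higher at S14. Its 5p arm was the most abundant newly annotated microRNA at S14, with 12374, 10586, 8071 and 10774 normalised counts, against 3989, 3656, 3603 and 2872 at S7–11. With a log2 fold change of 1.38 ± 0.21 (adjusted p = 1.5e-05, edgeR) it lay just under the fold threshold, and at 1.52 just above it where near-equal copies of other microRNAs were summed. The 3p arm had 521, 430.2, 359.6 and 435 normalised counts at S14, against 122, 112, 127 and 89.6 at S7–11. It was called, at 1.78 ± 0.19 (adjusted p = 3.1e-07, edgeR), and neither arm's groups overlapped.

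Dpu-Mir-8-5p is the other conserved microRNA called higher. The miR-8 family, named here after its match in the water flea *Daphnia pulex*, is expressed in epithelia and controls body growth in *Drosophila*. Its 5p arm had 257, 326, 277 and 188 normalised counts in S14 libraries, against 66.4, 79.4, 66.2 and 78.1 in S7–11 libraries, with a log2 fold change of 1.72 ± 0.24 (adjusted p = 1.1e-05, edgeR). The lowest S14 library was above the highest S7–11 library by more than the spread within S7–11. The sister arm Dpu-Mir-8-3p had 104, 96.2, 71.0 and 81.4 at S14, against 65.6, 28.96, 41.2 and 50.6 at S7–11, and rose by 0.75 ± 0.22 (adjusted p = 0.0122, edgeR).

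The sixth call was the 5p arm of locus 29775 on contig LQNS02277812.1, newly annotated. It had 687, 493, 482 and 569.7 normalised counts at S14, against 178, 153, 154 and 157 at S7–11 (log2 fold change 1.63 ± 0.29, adjusted p = 1.2e-04, edgeR). The same contig holds miR-12, which shares a cluster with other microRNAs in *Drosophila*, at locus 29773. miR-12-5p had 753, 495, 677 and 682 normalised counts at S14, against 258, 208, 248 and 292 at S7–11, and rose by 1.23 ± 0.30 (adjusted p = 0.00273, edgeR), below the fold threshold.

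**Figure D2:**
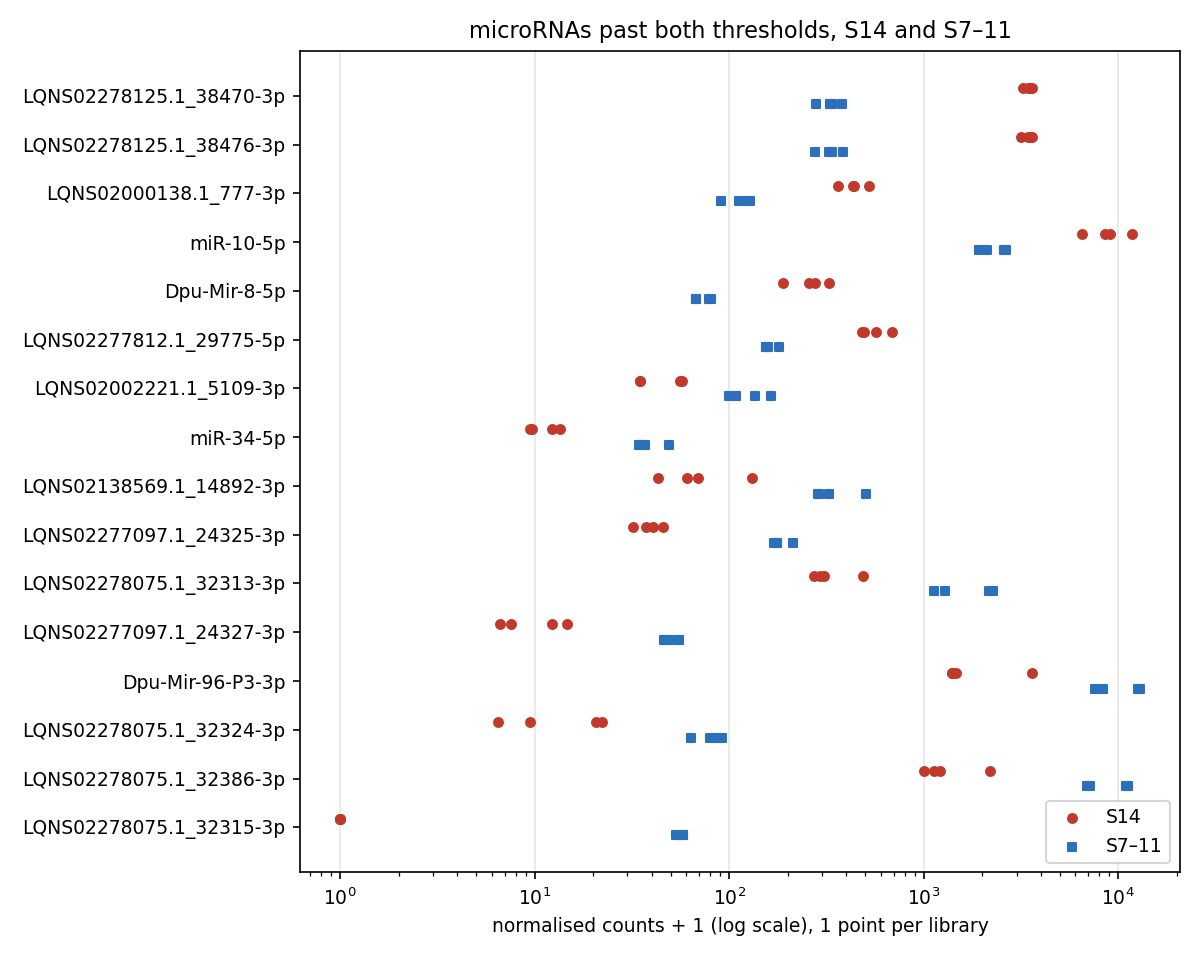
Normalised counts plus 1 (x axis, log scale) of the 16 called microRNAs in each S14 library (red circles) and each S7–11 library (blue squares), ordered by fold change. In none of the 16 do the points of both time-points overlap, and the S14 points of locus 32315-3p sit at 0 counts.

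Among the 10 microRNAs called lower at S14, 5 lie on a single contig, LQNS02278075.1. Dpu-Mir-96-P3-3p, of the miR-96 and miR-183 family that is known from sensory organs of vertebrates, had 1472, 3589, 1394 and 1395 normalised counts in S14 libraries. In S7–11 libraries it had 12896, 12614, 8345 and 7612. The second S14 replicate was high, yet below every S7–11 library, and the log2 fold change was -2.59 ± 0.45 (adjusted p = 8.7e-05, edgeR).

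The 3p arm of locus 32386, newly annotated, had 1207, 2182, 1131 and 1005 normalised counts at S14, against 11233, 10912, 6892 and 7190.0 at S7–11, and fell by 2.89 on the log2 scale (SE 0.42, adjusted p = 1.1e-05, edgeR). Locus 32313-3p had 271, 487, 292 and 306 at S14, against 2273, 2161, 1292 and 1125 at S7–11 (-2.53 ± 0.44, adjusted p = 8.7e-05). In both, as in Dpu-Mir-96-P3-3p, the second replicate was the highest at S14, and the first and second were the highest at S7–11. Locus 32324-3p was rarer, with 21.2, 8.49, 5.46 and 19.6 normalised counts at S14 and 78.4, 86.9, 62.4 and 90.5 at S7–11 (-2.72 ± 0.53, adjusted p = 3.2e-04, edgeR). That call missed the threshold of 0.001 without the second or the third S14 replicate (adjusted p = 0.00196 and 0.00272, edgeR) and without the second S7–11 replicate (0.00109). It was also lost under total counts (0.0165) and with the 8 libraries thinned to the depth of the shallowest (0.00275).

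Locus 32315-3p had 0 counts in all 4 S14 libraries, against 56.8, 56.9, 52.4 and 55.0 normalised counts at S7–11. With a limit of 3 counts over the group at S14, it was at least 44.7-fold lower (adjusted p = 2.8e-04, edgeR). The adjusted p was 0.00137 without the first and 0.00144 without the third S14 replicate. Its counts cannot be separated from those of the copies 32304-3p and 32310-3p, each of which also had 0 counts in 2 of the S14 libraries. The 3 copies summed to 34.98, 36.8, 12.02 and 16.8 normalised counts at S14, against 167, 172, 155 and 169 at S7–11, and the sum fell by 2.79 on the log2 scale (SE 0.40, adjusted p = 7.2e-06, edgeR), so that the sequence was still detected at S14.

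The contig, described as a group after these values were seen, carries 14 precursors, 13 of them newly annotated, and 21 of its 28 mature microRNAs were tested. Their median log2 fold change was -1.89, against -0.06 over all microRNAs tested, and it was the same with the 2 members that had 0 counts in all S14 libraries set to their limits. Of the 21, 8 had an adjusted p of at most 0.05, all lower, and for 16 every S14 library was below every S7–11 library, where over all microRNAs tested the shares were 20.1% and 23.5%. Several of the 21 are copies whose reads were divided by estimation, so they are not separate measurements. With copies summed, a further pair of copies was called, 32312-3p and 32306-3p, whose sum fell by 2.10 on the log2 scale (adjusted p = 1.1e-05, edgeR), with 44.0 ± 8.28 normalised counts at S14 and 187 ± 15.2 at S7–11 (SD, n = 4). The sum of 4 copies on the 5p side (loci 32304, 32306, 32310 and 32312) fell by 1.20 (adjusted p = 0.00143, edgeR). This sum of expected counts was a whole number in 0 of the 28 libraries, so some reads may be divided with a microRNA outside the group. A fall was not clear in every member of the contig. Locus 32382-3p, the most abundant on the contig at S14, had a log2 fold change of -0.33 (adjusted p = 0.286), and locus 32384-3p 0.26 (adjusted p = 0.436). The contig took 4.16, 4.30, 3.48 and 3.73% of microRNA counts at S14, against 10.1, 9.03, 6.87 and 6.09% at S7–11.

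Contig LQNS02278125.1, likewise chosen by its values, has 4 precursors, all newly annotated, and all 8 mature microRNAs were tested. Of these 7 had an adjusted p of at most 0.05, all higher (15% over all tested), with a median log2 fold change of 2.74. The 8 are pairs of copies whose reads were divided by estimation, so both members of a pair are not separate measurements. Copies 38478-3p and 38474-3p summed to 448, 461, 389 and 457 normalised counts at S14, against 57.6, 61.1, 84.3 and 53.2 at S7–11, and the sum was called at 2.73 ± 0.56 (adjusted p = 4.6e-04, edgeR). Their 5p arms summed to 248 ± 17.5 at S14 and 40.9 ± 6.80 at S7–11 (SD, n = 4), and were called at 2.56 ± 0.40 (adjusted p = 1.7e-05). As single copies none of these 4 passed both thresholds, and 38478-5p missed at an adjusted p of 0.00117. The contig took 2.42% ± 0.274 of counts at S14 and 0.187% ± 0.033 at S7–11.

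The remaining 5 calls were lower at S14 and lie on 4 contigs. Locus 14892-3p of contig LQNS02138569.1 had 60.0, 130.2, 67.8 and 42.1 normalised counts at S14, against 287, 285, 323 and 506 at S7–11 (-2.35 ± 0.34, adjusted p = 1.1e-05, edgeR). With the libraries thinned in this way, the adjusted p was 0.00104, just over the threshold. Its 5p arm had a log2 fold change of -2.29 and missed the p threshold at 0.00157. Loci 24325-3p and 24327-3p of contig LQNS02277097.1 averaged 37.9 ± 5.76 and 9.31 ± 3.87 normalised counts at S14, against 183 ± 19.1 and 49.8 ± 4.39 at S7–11 (SD, n = 4). They fell by 2.40 and 2.54 on the log2 scale (adjusted p = 1.2e-04 and 8.7e-05, edgeR). Both calls were lost under total counts (adjusted p = 0.00612 and 0.00340), and that of 24327-3p also on thinning (0.0228). Locus 5109-3p of contig LQNS02002221.1 had 55.0, 34.0, 33.9 and 56.1 at S14 and 98.4, 107, 162 and 135 at S7–11 (-1.64 ± 0.33, adjusted p = 3.6e-04, edgeR). Without 1 library this call was lost most often: the adjusted p was 0.00108, 0.00233 and 0.00256 without the first, the second or the third S14 replicate, and 0.00263 without the third S7–11 replicate. It was 0.0389 under total counts and 0.00704 on thinning.

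miR-34-5p, a conserved microRNA linked in *Drosophila* to maternal supply and to the ageing brain, was the last of the 10. It had 12.5, 11.3, 8.74 and 8.42 normalised counts at S14, against 36.0, 33.3, 48.1 and 33.7 at S7–11 (log2 fold change -2.02 ± 0.34, adjusted p = 5.7e-05, edgeR). The S14 values rest on 10, 4, 8 and 3 counts, and the call was lost under total counts (-1.47, adjusted p = 0.00633) and on thinning (adjusted p = 0.0136). Its cluster partner miR-317-3p had 26.2, 8.49, 8.74 and 0 at S14 and 43.2, 52.6, 59.9 and 39.0 at S7–11, and fell by 2.25 with an adjusted p of 0.00379. The third member, miR-277-3p, averaged 6.50 at S14 and 3.60 at S7–11 and did not pass (adjusted p = 0.713).

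Past the p threshold but under the fold threshold, 10371-3p (106 ± 16.2 at S14, 214 ± 37.8 at S7–11) and 26534-5p (98.7 ± 8.30 at S14, 194 ± 50.8 at S7–11), both newly annotated, were lower at S14. Their log2 fold changes were -1.15 and -1.10 (adjusted p = 1.2e-04 and 3.4e-04, edgeR), and under total counts both had an adjusted p of 0.0781.

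Of the 16 called microRNAs, 12 were newly annotated, and of the 234 tested 105 were. The newly annotated ones had a median log2 fold change of -0.62 (-0.42 with those at 0 at 1 time-point set to their limits), with 14 higher and 27 lower at an adjusted p of at most 0.05. The previously annotated ones had a median of 0.24, with 21 higher and 20 lower of 129. Under total counts the balance turned round among the newly annotated, with 20 higher and 10 lower. Among the previously annotated 31 were then higher and 4 lower. The medians of the newly and the previously annotated were -0.07 and 0.81. The newly annotated microRNAs together took 16.002, 12.8, 13.2 and 13.9% of counts at S14, against 12.3, 11.2, 10.5 and 9.81% at S7–11. Among counts outside the miR-92 family their share was 27.3% at S14 and 27.1% at S7–11.

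miR-92 microRNAs made up the largest part of all counts. This family is widely conserved and is expressed in neural progenitors in *Drosophila*. Its members took 45.7, 48.6, 50.5 and 50.7% of counts in S14 libraries, against 57.0, 59.2, 59.2 and 62.9% in S7–11 libraries, with no overlap. miR-92-3p of locus 34108 was the most abundant microRNA in the data, with 70831, 99333, 83163 and 90789 normalised counts at S14, against 129109, 150937, 145985 and 173648 at S7–11. It fell by 0.93 on the log2 scale (SE 0.28, adjusted p = 0.0113, edgeR). Locus 34110-3p had 813 ± 14.1 at S14 and 1729 ± 169.7 at S7–11 (SD, n = 4) and fell by 1.23 (adjusted p = 0.00164). Locus 34106-3p, at -0.64, had an adjusted p of 0.0271, which was 0.0315 to 0.0898 over the fits that left out 1 library. None of the 5 tested members was called, and under total counts none had an adjusted p of at most 0.05, with 0.257 for locus 34108.

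The 4 copies of miR-184-3p, a microRNA needed in the female germ line and early embryo of *Drosophila*, formed the next most abundant family at both time-points. They took 12.99, 14.2, 14.4 and 13.3% of counts at S14 and 13.4, 12.9, 14.3 and 14.1% at S7–11. The groups overlapped, and the summed log2 fold change of -0.42 ± 0.24 had an adjusted p of 0.162 (edgeR) and was 0.00 under total counts.

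**Figure D3:**
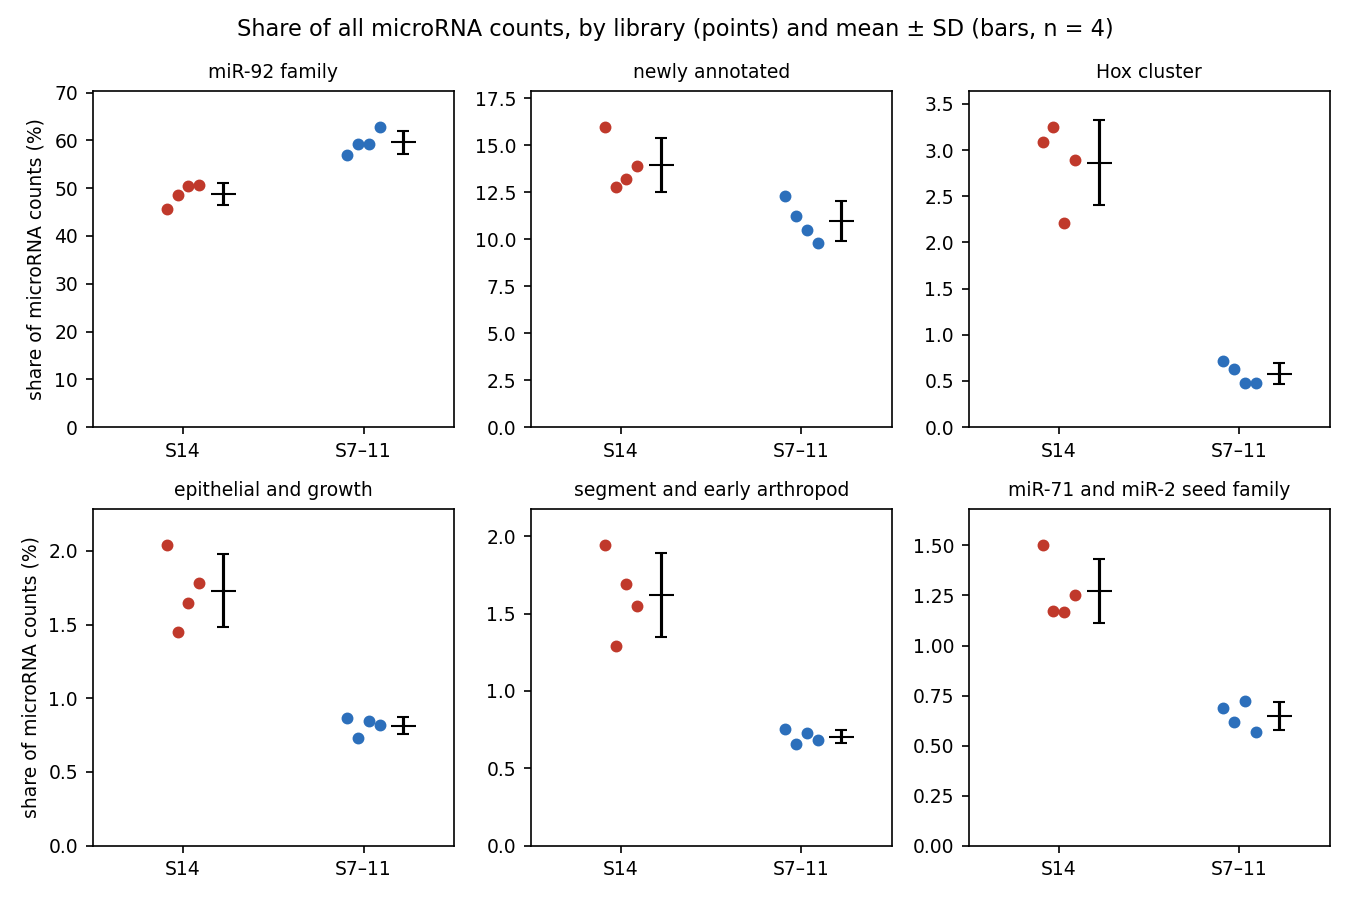
Share of all microRNA counts (y axis, percent, from 0) of 6 lists in the S14 libraries (red, left) and the S7–11 libraries (blue, right), with the mean and SD of 4 libraries beside the points. The S14 libraries lie below the S7–11 libraries for the miR-92 family and above them for the other 5 lists.

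Besides miR-10-5p, the Hox cluster contig holds miR-993 and iab-4, and 5 of the 6 mature microRNAs were tested. 3 of them had an adjusted p of at most 0.05, all higher, with both scalings. Over all tested 15% were higher, and 51 of 234 under total counts. The median log2 fold change of the 5 was 1.77, or 1.29 with miR-993-5p at its limit for 0 counts. miR-993-3p, which derives from the same ancestral family as miR-10, had 84.9, 39.6, 55.7 and 33.7 normalised counts at S14, against 7.197, 3.22, 7.49 and 18.6 at S7–11 (2.46 ± 0.65, adjusted p = 0.0052, edgeR). The groups did not overlap, although the fourth S7–11 replicate was high. miR-10-3p had 78.5 ± 6.20 at S14 and 47.6 ± 4.69 at S7–11 (0.59 ± 0.18, adjusted p = 0.0152), and without the third S14 replicate the adjusted p was 0.0617. iab-4-5p, which represses Ubx in *Drosophila*, was at 2.15 on average at S14 and 0.843 at S7–11, too low to compare.

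The let-7 complex joins let-7 with relatives of miR-100 (Dpu-Mir-10-P2) and miR-125 (Dpu-Mir-10-P3), which control developmental timing in insects and worms. Of 5 tested members 3 had an adjusted p of at most 0.05, all lower (20.1% of all microRNAs tested were), none was called, and the median log2 fold change was -1.16, or -1.10 with Dpu-Mir-10-P3-3p at its limit. Under total counts 1 of the 3 kept an adjusted p of at most 0.05, Dpu-Mir-10-P2-3p at 0.0223, and the median was -0.62. Dpu-Mir-10-P2-3p had 17.5, 42.5, 10.9 and 14.0 normalised counts at S14, against 76.0, 91.2, 78.7 and 50.6 at S7–11, and fell by 2.02 (SE 0.49, adjusted p = 0.00257, edgeR). Its dominant 5p arm had 807, 1495, 691 and 769 at S14 and 2153, 2099, 1449.6 and 1389 at S7–11. There the second S14 replicate overlapped with S7–11, and the value of -1.10 had an adjusted p of 0.0179, with 0.00567 to 0.0622 over the fits that left out 1 library and 0.228 under total counts. Dpu-Mir-10-P3-3p, the third, had 0 counts in all S14 libraries and 2.09 on average at S7–11, with an adjusted p of 0.0227, or 0.0510 under total counts. let-7c-5p had 30.6 ± 10.3 at S14 and 61.3 ± 13.2 at S7–11 (SD, n = 4), with no overlap but an adjusted p of 0.158.

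In the neural list, 7 of 23 tested members had an adjusted p of at most 0.05, with 3 higher and 4 lower, which is no more than the 35% of all microRNAs tested, and the median log2 fold change of -0.03 was close to that of all microRNAs. Under total counts 4 were higher and 1 lower, against 51 higher and 14 lower of all 234 tested, and the median was 0.44 (0.45 over all). miR-7-5p, known from photoreceptor and neuron differentiation in *Drosophila*, had 1464, 1129, 1245 and 1353 normalised counts at S14, against 2145, 2576, 2878 and 2874 at S7–11, and fell by 1.15 (SE 0.27, adjusted p = 0.00199, edgeR), with an adjusted p of 0.101 under total counts. The loci of miR-9-5p, a microRNA of neural and sensory precursors, are given separately. Copies 31740 and 31742 summed to 8699.7, 8049.9, 7573 and 8175 at S14, against 2837, 3410.1, 3808 and 3531 at S7–11, and the sum rose by 1.22 ± 0.39 (adjusted p = 0.0151, edgeR). Expected counts of the pair summed to a whole number in 16 of the 28 libraries, so some reads may be divided with a microRNA outside the pair. For the single copies the adjusted p of 0.0303 was up to 0.0704 over the fits that left out 1 library.

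A further locus of miR-9-5p, 36129, had 6975, 6799, 6639 and 7008 at S14 and 6081, 8059, 8907 and 7857 at S7–11, overlapping groups with a log2 fold change of -0.31 (adjusted p = 0.0592), or 0.23 under total counts. The difference between the loci was not tested. miR-9b-5p (-0.36, adjusted p = 0.0392) and Dpu-Mir-9-o15-3p (-0.94, adjusted p = 0.0419), from the same contig as locus 36129, had overlapping groups, and their adjusted p was up to 0.125 and 0.211 over the fits that left out 1 library. miR-190-5p had 39.98, 42.5, 28.4 and 19.6 at S14, against 5.598, 7.51, 8.74 and 13.3 at S7–11 (1.77 ± 0.58, adjusted p = 0.0219, edgeR), and missed 0.05 without the first S14 or the first S7–11 replicate (up to 0.0545). miR-263a-5p, which protects sensory bristles in *Drosophila*, was the most abundant microRNA at S14 after the miR-92 and miR-184 families. It had 11242, 27221, 15595 and 12727 normalised counts there and 12449, 12485, 12106 and 8350.5 at S7–11, with no change called (adjusted p = 0.283). miR-124, the neuronal microRNA of bilaterians, was close to 0 at both time-points. Its 3p arm had 1, 0, 0 and 0 counts in S14 libraries and also 1, 0, 0 and 0 in S7–11 libraries. The 5p arm averaged 1.599 normalised counts at S14 and 0.578 at S7–11, from 2, 0, 1 and 1 counts and 1, 0, 1 and 1 counts, too few to compare.

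Of the muscle microRNAs, miR-1-3p had 73.7, 70.8, 50.3 and 53.3 normalised counts at S14, against 27.99, 34.3, 42.5 and 38.2 at S7–11. The groups did not overlap, but the log2 fold change of 0.65 ± 0.69 had an adjusted p of 0.487 (edgeR). The 3p arms of the miR-133 loci were at 2.66 and 2.19 on average at S14 and at 1.98 and 0 at S7–11.

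The epithelial and growth list had 6 members higher and 3 lower at an adjusted p of at most 0.05, of 17 tested, with a median log2 fold change of 0.62 (0.50 with 1 member at its limit for 0 counts). Over all microRNAs tested 15% were higher and 20.1% lower, so the lower members were near the background share. Under total counts 6 were higher and 0 lower, against 51 higher and 14 lower of all 234 tested. miR-275-3p, which is expressed in the gut of mosquitoes, had 1629, 1922, 1766 and 1993 normalised counts at S14, against 716, 909.6, 970.2 and 974 at S7–11. It rose by 0.90 ± 0.13 (adjusted p = 1.1e-05, edgeR). miR-305-5p, from the neighbouring locus, rose by 0.62 ± 0.14 (adjusted p = 0.00188), with 853 ± 94.0 at S14 and 501 ± 48.1 at S7–11 (SD, n = 4). bantam-3p, which promotes growth and blocks cell death in *Drosophila*, had 399.8, 374, 342 and 569.7 at S14 and 234, 173, 271 and 248 at S7–11, and rose by 0.71 ± 0.18 (adjusted p = 0.00316). For all 3 the groups did not overlap, and the adjusted p was at most 0.0184 in each fit that left out 1 library.

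miR-276-3p had 529.7, 306, 211 and 345 normalised counts at S14, against 77.6, 66.5, 80.5 and 185 at S7–11, with a log2 fold change of 1.64 ± 0.55 (adjusted p = 0.0227, edgeR). The fourth S7–11 replicate was high, and the adjusted p was 0.0181 to 0.0715 over the fits that left out 1 library. The 3 lower members were copies of miR-306-5p, which summed to 561 ± 108 at S14 and 740.0 ± 50.5 at S7–11 (SD, n = 4). The sum had a log2 fold change of -0.44 and an adjusted p of 0.0612, and 0.01 under total counts.

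miR-71 and the miR-2 seed family, whose members repress cell death genes in *Drosophila*, lie together on contig LQNS02277997.1 apart from a copy of Dpu-Mir-2-o3. Of 12 tested, 4 were higher at an adjusted p of at most 0.05 (15% over all microRNAs) and none lower, and the median log2 fold change was 0.78. Under total counts 7 were higher, 1 of them called, against 51 of 234 higher over all microRNAs. The median of the list was then 1.35, against 0.45 over all. isc-miR-2b-3p had 1051, 769.9, 761 and 783 at S14, against 499.8, 413, 452 and 375 at S7–11 (0.78 ± 0.20, adjusted p = 0.00465, edgeR). miR-2b-3p of locus 30818 rose by 0.96 (adjusted p = 0.00855) and miR-2b-5p of locus 30808 by 1.16 (adjusted p = 0.00233). The fourth, Dpu-Mir-2-o3-3p of locus 30812, did not keep an adjusted p of at most 0.05 once its copies were summed. Its sum was 480.2 ± 28.7 at S14 and 365 ± 14.4 at S7–11, at 0.36 with an adjusted p of 0.0779. With near-equal copies summed throughout, 5 of 9 tested were higher, against 36 of 190 over all. Among the 5 was the sum of miR-2b-3p of loci 30808 and 30810 (0.70, adjusted p = 0.0368, edgeR), a whole number in 0 of the 28 libraries. miR-71-5p, the first microRNA of the cluster in other protostomes, had 1482 on average at S14 and 1169 at S7–11 (adjusted p = 0.374).

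On the same contig, miR-750-3p of loci 30946 and 30950 summed to 3007, 2816, 2926 and 2686 at S14, against 1463, 1390.2, 1503 and 1561 at S7–11, and the sum rose by 0.92 ± 0.30 (adjusted p = 0.0168, edgeR). As a single copy, locus 30946 had an adjusted p of 0.0344, and 0.0361 to 0.0925 over the fits that left out 1 library. The segment and early arthropod list, which holds it, had 2 higher and 0 lower of 22 tested at an adjusted p of at most 0.05, below the 15% higher over all microRNAs. With near-equal copies summed, 6 of 19 were higher, against 36 of 190 over all, so this comparison turned round. In 7 of the 22 all S14 libraries lay above, against 22.2% over all. Under total counts 6 of the 22 were higher, 1 of them called, against 51 of 234 over all microRNAs. Its share of counts was 1.62% ± 0.271 at S14 and 0.704% ± 0.0423 at S7–11 (SD, n = 4). Of conserved microRNAs outside the lists, miR-281-5p summed over both copies to 307, 309, 364 and 376 at S14 and 90.4, 78.3, 91.8 and 122 at S7–11 (1.80 ± 0.43, adjusted p = 0.00143, edgeR), just over the p threshold.

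The miR-279 family, which shapes sensory neurons in *Drosophila*, had 4 of 10 tested members lower at an adjusted p of at most 0.05 (20.1% over all microRNAs) and a median log2 fold change of -0.52. The 3 copies of miR-279b-3p summed to 5282, 3971, 4080.0 and 4095 at S14, against 6159.7, 6296, 6632 and 7093 at S7–11. The sum fell by 0.62 (SE 0.13, adjusted p = 7.3e-04, edgeR), with every S14 library below, and Dpu-Mir-279-o6-3p fell by 0.75 (adjusted p = 3.4e-04). Under total counts the adjusted p of these 4 was at least 0.412, and the median of the list was 0.03, so the direction of this family rests on the scaling. With TMM and copies summed, 2 of 6 tested were lower (39 of 190 over all) and the median was -0.11. The median of -0.52 thus also rests on counting the copies singly.

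**Figure D4:**
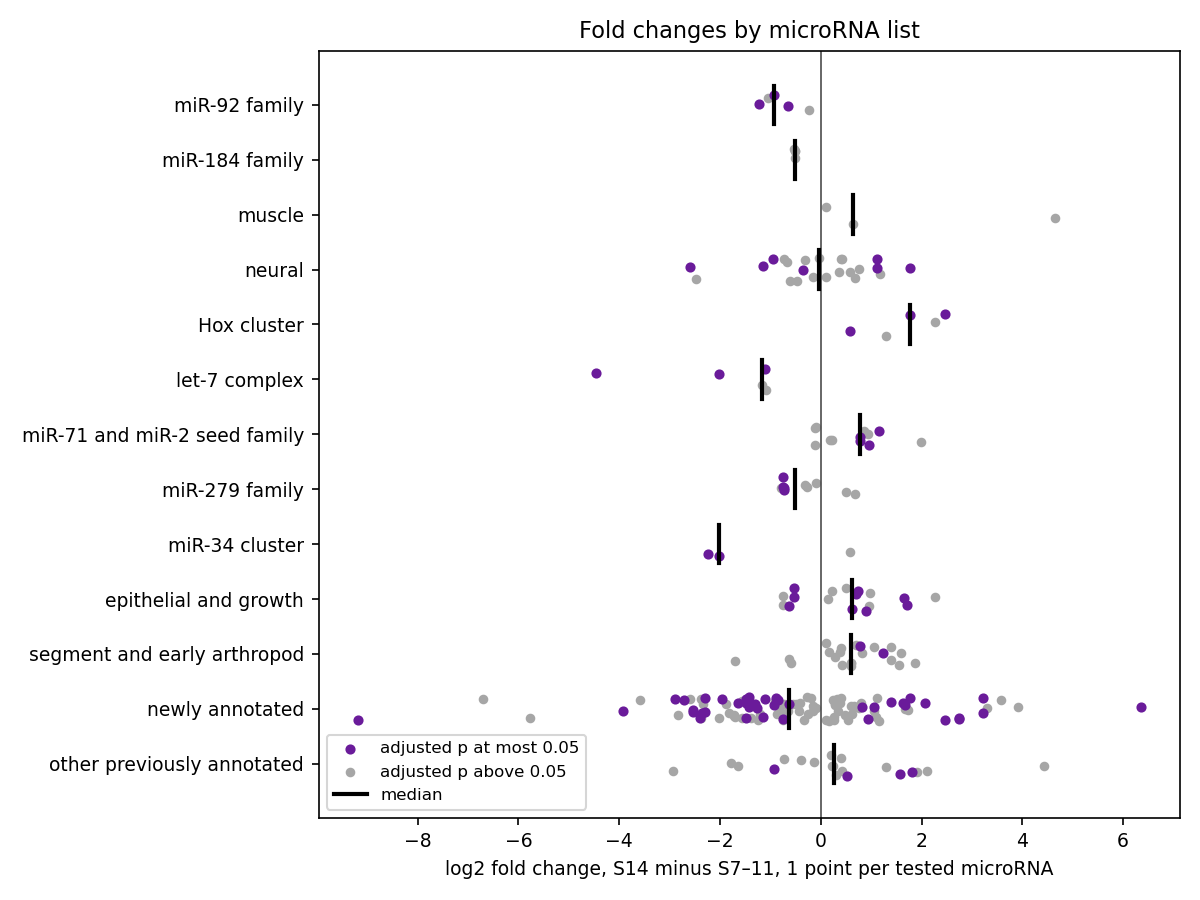
Log2 fold change (S14 minus S7–11, x axis) of each tested microRNA, by list. Purple points have an adjusted p of at most 0.05, grey points do not, and black bars are medians, which reach from -2.02 in the miR-34 cluster to 1.77 in the Hox cluster; points at about -9 and above 6 had 0 counts in all libraries of 1 time-point.

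The balance of the 5p and 3p arms was measured as the log2 ratio of their normalised counts, with 0.5 added to each, in the 109 precursors with a mean of at least 10 for both arms together at both time-points. The mean ratio favoured the 3p arm at both time-points in 62 of them and the 5p arm in 43, and its sign differed in 4. None of these 4 passed limma at an adjusted p of 0.05. miR-190 was 1 of the 4, with ratios of 0.09, -0.48, 1.34 and 0.00 at S14 and -3.47, -2.21, -2.13 and -1.15 at S7–11 (difference 2.48 ± 0.59, adjusted p = 0.0752).

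The test called 3 precursors (2.75% of 109), and in 2 of them an arm was at 0. For locus 32315 the 3p arm had 0 counts at S14, as above, and for miR-34 the 3p arm had 0 counts in all 8 libraries, so that its ratio follows the level of the 5p arm. The third was miR-87 of locus 33002, whose ratios were -1.77, -1.29, -1.38 and -0.21 in S14 libraries, against -3.23, -3.46, -4.04 and -2.81 in S7–11 libraries (2.22 ± 0.42, adjusted p = 0.0373, limma). Its 5p arm had 39.6 ± 10.6 normalised counts at S14 and 11.8 ± 4.50 at S7–11, and its 3p arm 89.1 ± 20.1 at S14 and 122 ± 4.65 at S7–11 (SD, n = 4), so that the 3p arm stayed the more abundant one. Leaving out the second or the third S14 replicate, or any of the S7–11 replicates, took the adjusted p to between 0.0552 and 0.144.

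In the whole time course, the called microRNAs fell into different patterns. Dpu-Mir-96-P3-3p, 32386-3p and 32313-3p were highest at S7–11: Dpu-Mir-96-P3-3p averaged 781 and 1553 normalised counts before S7–11 and 10367 at that time-point, followed by 1962, 483, 98.6 and 25.1. Loci 14892-3p, 24327-3p and 32324-3p and miR-34-5p were called lower at S7–11 than at S5–6 as well, but none of these earlier calls was kept under total counts. There 14892-3p and 24327-3p had log2 fold changes of -1.37 and -1.86 (adjusted p = 8.2e-04 and 0.00109, edgeR), and 32324-3p and miR-34-5p of -0.50 and -0.31 (adjusted p = 0.505 and 0.507). Locus 14892-3p averaged 3051, 3052, 350.4, 75.0, 23.1, 13.1 and 5.36 over the 7 time-points.

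Among the microRNAs called higher, miR-10-5p averaged 4897, 7644, 2321, 8959.8, 28715, 27662 and 34111, in the same order. It was called higher at S17 than at S14 with both scalings, at a log2 fold change of 1.71 and of 1.89 under total counts. Its dip at S7–11 rests on the scaling: it was called lower there than at S5–6 with TMM factors (-1.60), but under total counts the value was -0.07 (adjusted p = 0.851, edgeR). Its share of all microRNA counts was lowest at S1–4, with 0.437% ± 0.130, followed by 0.591% ± 0.262 at S5–6 and 0.565% ± 0.116 at S7–11 (SD, n = 4). The pair 38476-3p and 38470-3p stayed at a summed mean of 273, 447 and 661 up to S7–11, had 6879.9 at S14 and 9799 at S17, and 1684 at S24–30. The neighbouring comparisons share libraries with this one. At the same thresholds, 36 microRNAs (15.4%) were called at S7–11 against S5–6, 15 higher (6.41%) and 21 lower (8.97%), and 2 (0.855%) at S17 against S14, both higher. Under total counts, an alternative chosen after seeing the data, 69 were called at S7–11 against S5–6, 68 higher and 1 lower, and the median log2 fold change was 1.24, against -0.25 with TMM. The miR-92 family took 59.6% of counts at S7–11 and 84.4% at S5–6, and the part of this difference in the calls was not tested.

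**Figure D5:**
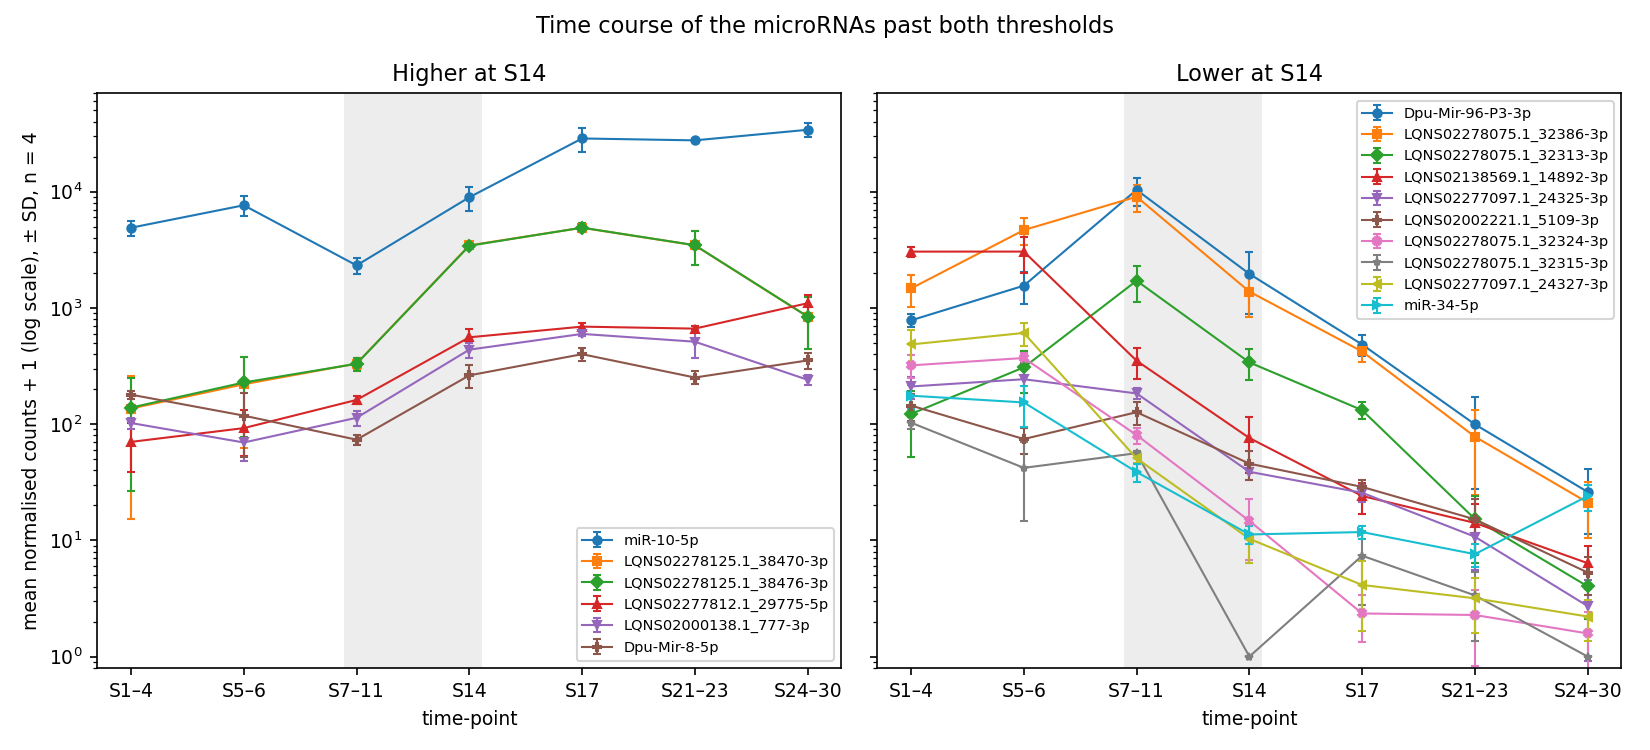
Mean normalised counts plus 1 (y axis, log scale, bars show SD of 4 libraries) of the called microRNAs at the 7 time-points, with those higher at S14 on the left and those lower on the right; the grey band marks S7–11 and S14. On this scaling the mean of miR-10-5p is lowest at S7–11 and highest, 34111, at S24–30 (by share of counts it is lowest at S1–4), and that of Dpu-Mir-96-P3-3p is highest at S7–11.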

How the data were processed

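The deposited values are expected counts that the authors estimated per mature microRNA and did not normalize. Per the methods and the submitters' processing notes, they trimmed reads with cutadapt (version 1.18), removed tRNA and rRNA reads, mapped with Bowtie (version 1.1.1), allowing 1 mismatch and reporting all matches, and quantified with Salmon (version 0.14.1). Reads of near-equal copies were thus divided by estimation, and values of single copies are uncertain. Counts were rounded here. Levels used size factors of DESeq2 (version 1.42.0), and changes were tested by quasi-likelihood in edgeR (version 4.0.16) with TMM, in 1 model of all 28 small RNA libraries and 7 time-points, adjusted after Benjamini and Hochberg. Arm ratios used limma (version 3.58.1) on 8 libraries. R was version 4.3.3. The tests were checked on simulated counts.

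Replicate counts differed by more than sampling noise (chi-squared over degrees of freedom 7.81 to 47.6). Whether replicates came from separate broods is not given in the sources used here, so p-values reflect the spread of these libraries alone, and it may be technical. The limit of 3 counts for a 0 (95% confidence) covers counting error only, since PCR reads without molecular identifiers are not independent molecules.

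The comparison, the lists and the thresholds were chosen with earlier results of these data known, so list shares are described without a p. Named microRNAs were the called ones, list members with an adjusted p of at most 0.05, the 3 nearest to each threshold, the 10 of largest share and the 8 precursors of lowest arm p; others (miR-124, miR-1, let-7c, miR-277, miR-133, iab-4, miR-71, miR-281 and further loci of both new clusters) were named after their values were seen. Mature sequences and mRNA libraries were not used here.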

Additional observations from a re-analysis of the deposited data

Results flagged for a closer look

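Of the 142 groups of 4 libraries examined, 10 held 1 library far from the other 3, and chance alone flags about 1 group in 20. At S14, the second replicate was high for Dpu-Mir-96-P3-3p (3589 normalised counts, others 1394 to 1472), Dpu-Mir-10-P2-5p (1495, others 691 to 807) and locus 32313-3p (487, others 271 to 306). The first S14 replicate was high for isc-miR-2b-3p (1051, others 761 to 783), for the summed copies of miR-279b-3p (5282, others 3971 to 4095) and for the summed 5p arms of loci 38478 and 38474 (274, others 235 to 241). At S7–11, the fourth replicate was low for miR-263a-5p (8350.5, others 12106 to 12485) and high for miR-276-3p (185, others 66.5 to 80.5) and locus 24325-3p (211, others 169 to 176), and the first was high for locus 29775-5p (178, others 153 to 157).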

How the results depend on the processing

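All 16 called microRNAs kept their direction under every alternative run. The count of 16 was 13 to 17 when 1 library was left out. It was 17 with the size factors of DESeq2, 24 with the Wald test of DESeq2, 22 with the 8 libraries alone, 18 when these were thinned to the shallowest one (11 of the 16 kept, without 14892-3p, 24327-3p, 5109-3p, 32324-3p and miR-34-5p), 15 without the filter, and 19 of 190 with near-equal copies summed (the last chosen after seeing the data). It was 53 at a log2 fold change of 1 with an adjusted p of 0.05, and 82 without a fold threshold, of which 58 kept an adjusted p of at most 0.05 in each fit without 1 library and 49 kept it with total counts. Total counts also gave 16 but kept 11, losing the calls of 24325-3p, 24327-3p, 5109-3p, 32324-3p and miR-34-5p. Same-numbered libraries were not paired by the labels, and their deviations correlated at 0.0616 to 0.136, over 0.1 in 2 of 4 numbers. With the replicate number as a block on the 8 libraries, 9 microRNAs were called (6 higher, 3 lower), against 22 on these libraries without it, and 1 precursor for arm usage. Of the 16 calls 8 were kept, and those of Dpu-Mir-8-5p, miR-34-5p, 14892-3p, 24327-3p, 5109-3p, 32313-3p, 32315-3p and 32324-3p were lost (adjusted p 0.00113 to 0.0172). At S7–11 against S5–6 the count of 36 was 69 with total counts (chosen after seeing the data).

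Values that turned round, none of them called, did so with total counts: miR-184-3p to 0.0023, 0.0048, 0.0041 and 0.0055, miR-9-5p of locus 36129 to 0.23, miR-9b-5p to 0.19 and miR-306-5p to 0.038 and 0.032. With copies summed as well they were 0.0042 for miR-184-3p, 0.23, 0.19 and 0.0059 for miR-306-5p. Summed over all loci, miR-9-5p was at 0.41. Arm usage calls went to 27 with an offset of 5 in place of 0.5, to 5 among precursors without copies (chosen after seeing the data), and to 2 to 4 without 1 library. The share of newly annotated microRNAs, higher by 3.00 percentage points at S14, differed by 0.199 among counts outside the miR-92 family and by 2.33 to 3.45 without 1 library. That of the miR-92 family differed by -11.6 to -9.61. Where the cause of a change is not given by the alternative itself, it was not tested. At S14, depth limits statements on microRNAs below about 10 normalised counts.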
